A study of Mus musculus with 6 samples.

Results

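CXC chemokines and their receptors were examined as a family of 10 genes (Cxcl1, Cxcl2, Cxcl5, Cxcl9, Cxcl10, Cxcl12, Cxcl15, Cxcl16, Cxcr2 and Cxcr4) out of 18193 genes named on the array. A probe set, the group of short oligonucleotides that reports 1 transcript on an Affymetrix array, was taken where its annotation gave exactly 1 of these symbols, which gave 17 of 45037 probe sets. RNA came from lung alveolar type II cells, the epithelial cells that make surfactant, of mice aged 2 months, and each of the 6 arrays held 1 independent pool of RNA. In 3 pools Insig1 was deleted (Insig1 ∆/∆ /Insig2 -/-, called deleted here) in mice that carried SpC-rtTA, driven by the surfactant protein C promoter, together with Otet-CRE. In the other 3 pools Insig1 stayed floxed (Insig1 flox/flox /Insig2 -/-, called control here) because the mice lacked either SpC-rtTA or Otet-CRE. Doxycycline ran from E6.5 to E12.5 per the labels of both groups, and both groups lacked Insig2. Deletion of Insig1 and presence of the complete Cre system coincide and cannot be told apart, and how many mice made up a pool is not stated in the labels or design text.

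CXC chemokines are small secreted proteins that attract leukocytes through G protein-coupled receptors. Those with a glutamate-leucine-arginine motif before the first cysteines, among them CXCL1, CXCL2, CXCL5 and CXCL15 in the mouse, draw neutrophils, and CXCR2 is the main receptor for CXCL1, CXCL2 and CXCL5. CXCL9 and CXCL10 are induced by interferons and act on CXCR3 of T cells, CXCL12 acts on CXCR4 and keeps leukocytes and progenitors in place, and CXCL16 is a membrane-bound ligand of CXCR6. In the lung, alveolar epithelial cells and macrophages both secrete neutrophil-attracting chemokines, and CXCL15 (lungkine) is a product of the lung epithelium.

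The targeted gene is given first. Insig1 signal was 2300.1, 3325 and 2959.5 in control pools 1, 2 and 3 and 1252.5, 1442 and 1750.4 in deleted pools 1, 2 and 3, so the groups did not overlap (log2 difference -0.95 ± 0.18 SE, adjusted p = 0.068 by limma, the linear model used for every test here), although the labels do not say whether its probe set lies in the deleted part. The brightest Insig2 probe set gave a log2 difference of -0.17. Control pool 3 stood apart from the other arrays, at -39.1 on the first principal component where the other 5 lay between -12.9 and 18.7. All 10 type II cell markers named on the array were past the filter on low signal, with summed signals of 673641 to 799321 in deleted and 692217 to 815900 in control pools. Values are signals on a linear scale, mean ± SD over 3 pools, and a log2 difference is deleted minus control with its moderated standard error.

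Promoters are shown for the 3 members whose window held a kappaB consensus match, the binding sequence of NF-kappaB factors, and for Cxcl15, the neutrophil-attracting member with the smallest difference, whose window held none. The windows of Cxcr4 (log2 difference 0.76), Cxcl9, Cxcl12 and Cxcr2 held no kappaB match either and are not shown. Each run covers 250 bases before to 50 bases after the gene's start in RefSeq (GRCm38.p6), read 5′ to 3′ on the gene's strand, and capitals mark motif matches. The Cxcl1 window is chr5:90890995-90891294 (plus strand), that of Cxcl2 chr5:90903649-90903948 (plus), that of Cxcl10 chr5:92348840-92349139 (minus) and that of Cxcl15 chr5:90794284-90794583 (plus).
Cxcl1: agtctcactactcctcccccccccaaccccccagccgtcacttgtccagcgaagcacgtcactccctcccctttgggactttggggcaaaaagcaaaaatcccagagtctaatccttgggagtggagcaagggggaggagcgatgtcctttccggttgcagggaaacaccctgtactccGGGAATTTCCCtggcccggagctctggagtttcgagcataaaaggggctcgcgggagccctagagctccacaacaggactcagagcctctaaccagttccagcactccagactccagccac
Cxcl2: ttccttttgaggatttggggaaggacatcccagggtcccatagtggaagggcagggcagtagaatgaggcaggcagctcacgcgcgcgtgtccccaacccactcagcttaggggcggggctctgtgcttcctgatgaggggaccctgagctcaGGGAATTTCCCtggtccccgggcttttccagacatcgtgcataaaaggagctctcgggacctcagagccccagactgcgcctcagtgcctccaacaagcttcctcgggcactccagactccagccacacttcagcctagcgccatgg
Cxcl10: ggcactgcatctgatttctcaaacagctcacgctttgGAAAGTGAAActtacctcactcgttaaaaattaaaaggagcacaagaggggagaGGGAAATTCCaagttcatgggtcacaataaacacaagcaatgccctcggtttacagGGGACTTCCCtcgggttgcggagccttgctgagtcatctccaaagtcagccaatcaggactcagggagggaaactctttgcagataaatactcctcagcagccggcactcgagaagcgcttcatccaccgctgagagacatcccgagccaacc
Cxcl15: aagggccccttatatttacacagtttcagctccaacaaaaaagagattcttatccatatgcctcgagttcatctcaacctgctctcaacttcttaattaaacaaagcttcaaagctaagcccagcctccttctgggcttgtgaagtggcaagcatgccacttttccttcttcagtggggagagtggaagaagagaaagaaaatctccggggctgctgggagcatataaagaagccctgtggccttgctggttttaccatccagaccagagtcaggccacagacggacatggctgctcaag
The capitals in Cxcl1 and Cxcl2 are the same 11 bases, GGGAATTTCCC, 71 to 61 bases before the start of Cxcl1 and 97 to 87 before that of Cxcl2, where matches on both strands overlap. Cxcl10 held a kappaB match at 159 to 150 and another at 103 to 94 bases before its start, and a match to the core of the interferon-stimulated response element (GAAA, any 2 bases, then GAAA) at 213 to 204. Promoter windows were matched for 8 of the 10 members, all but Cxcl5 and Cxcl16. Searched on both strands, the kappaB consensus was found in 3 of these 8 and in 4.51% of 32841 promoter windows of the same length, and the interferon element in 1 of 8 and 3.44%. A sterol regulatory element (ATCAC, any base, then CCAC), a sequence bound by the SREBP factors that INSIG proteins restrain, was found in 0 of 8 and in 0.234%. A match is a description of the letters only.

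Of the 10 members, 8 had a probe set past the filter (mean log2 signal of 8.08, a signal of 270.6, the 40th percentile of all probe sets), and these 8 lay above it in each of the 6 pools on their brightest probe set. Cxcl5 and Cxcl2 rose in deleted pools and no member fell, at an adjusted p under 0.05 (limma with Benjamini-Hochberg adjustment over 12952 genes, each by its brightest probe set). That is 2 of 8 members higher, where 0.625% of all genes tested were called higher. At an unadjusted p under 0.05, 5 of 8 were higher and none lower (Cxcl5, Cxcl2, Cxcr4, Cxcl10 and Cxcl1), where 6.05% of all genes were higher. The deleted pools lay wholly above the control pools for Cxcl5, Cxcl2, Cxcr4 and Cxcl10, 4 of 8, where 9.2% of all genes did. The median log2 difference of the 8 was 0.74 and that of all genes tested -0.0049. The count of 2 became 3 without control pool 3 (Cxcr4 added), stayed 2 without control pool 2, and was 0 without control pool 1 or without deleted pool 1, 2 or 3. Macrophage markers moved with these genes: 9 of 20 measured were called higher (median log2 difference 0.94), and their part in the result was not tested.

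**Figure D1:**
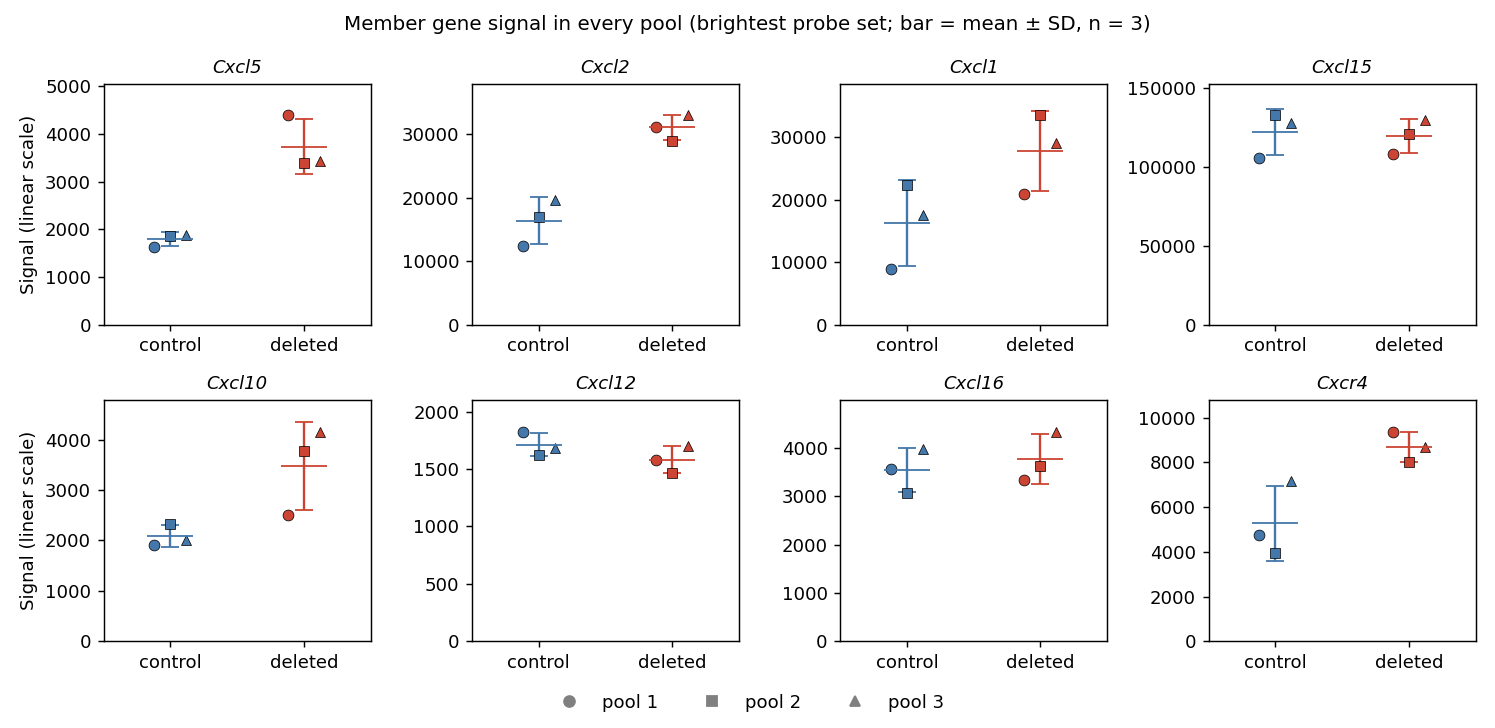
Signal (linear axis from 0) of the 8 member genes past the filter on their brightest probe set, in control (blue) and deleted (red) pools; each marker is 1 pool and bars give mean ± SD (n = 3). For Cxcl5, Cxcl2, Cxcl10 and Cxcr4 every deleted pool lies above every control pool, while the groups overlap for Cxcl1, Cxcl15, Cxcl12 and Cxcl16.

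Cxcl5, a neutrophil attractant known to be made by lung epithelium, had signals (1419728_at) of 1622, 1870.2 and 1877 in control pools 1, 2 and 3 and of 4395, 3386 and 3423 in deleted pools 1, 2 and 3. All 3 deleted pools were high, pool 1 most of all, and the groups lay far apart. The mean was 3735 ± 572 against 1789.7 ± 145 (n = 3 each), a 2.08-fold rise (log2 difference 1.05 ± 0.15, adjusted p = 0.015 by limma). Among 12952 genes it was 38 in the order of p and 109 in the order of increase. The adjusted p was 0.011 without control pool 2 and 0.012 without control pool 3, and it missed the threshold without control pool 1 (0.079) or deleted pool 1, 2 or 3 (0.086, 0.075 and 0.071), where the log2 difference stayed between 0.93 and 1.12. Without an intensity trend in the variance model it was 0.075.

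Cxcl2, also called MIP-2, is an early neutrophil attractant of macrophages and epithelium. Its signal (1449984_at) was 12424, 17012 and 19693 in control pools 1, 2 and 3 and 31169.9, 28942 and 32979.7 in deleted pools 1, 2 and 3. Control pool 1 was the lowest, and the lowest deleted pool still lay well above the highest control pool. The mean was 31030.4 ± 2023 against 16376.5 ± 3676, a 1.93-fold rise (log2 difference 0.95 ± 0.16, adjusted p = 0.042 by limma). The call was lost without control pool 1 (log2 difference 0.76, adjusted p = 0.080). It was also lost without deleted pool 1, 2 or 3, where the log2 difference was 0.94, 0.995 and 0.90 and the adjusted p 0.18, 0.16 and 0.21. With no filter the adjusted p was 0.060 and without an intensity trend 0.16, and the call was kept without control pool 2 (adjusted p = 0.026) or 3 (adjusted p = 0.0092). When all 27022 probe sets past the filter were fitted in place of genes, 1 of 13 member probe sets was called higher, that of Cxcl5 (adjusted p = 0.023), and 0.315% of all probe sets were, with Cxcl2 at 0.058.

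Cxcl1, also called KC, shares its receptor with CXCL2 and is reported by 3 probe sets. On the brightest (1457644_s_at) the signal was 8898, 22367 and 17642 in control pools 1, 2 and 3 and 20919, 33563.5 and 29075 in deleted pools 1, 2 and 3. Control pool 1 was low, and deleted pool 1 lay below control pool 2, so the groups overlapped. The log2 difference was 0.85 ± 0.31, which did not pass (adjusted p = 0.33 by limma). It was 0.46 without control pool 1 and 1.13 without control pool 2. The other probe sets gave 0.84 ± 0.27 (1419209_at) and 0.69 ± 0.27 (1441855_x_at, of a class whose probes can bind other transcripts). Control pool 1 was the lowest of the 6 pools on all 3, as it was for Cxcl5, Cxcl2, Cxcl10 and both Cxcl15 probe sets.

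Cxcl15, the lungkine gene, gave 105639, 132825 and 128088 in control pools 1, 2 and 3 and 107913, 120948 and 129543 in deleted pools 1, 2 and 3 on 1421404_at. The groups overlapped, with pool 1 the lowest in each. The log2 difference was -0.029 ± 0.13 (adjusted p = 0.96 by limma) and its sign turned to 0.067 with quantile normalization, 0.049 with a shift to a common median and 0.072 with array weights. The dimmer probe set (1456428_at) gave -0.031 ± 0.12. Both lay near the top of the range, where array maxima ran from 141333 to 197205, so a rise could be compressed here.

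**Figure D2:**
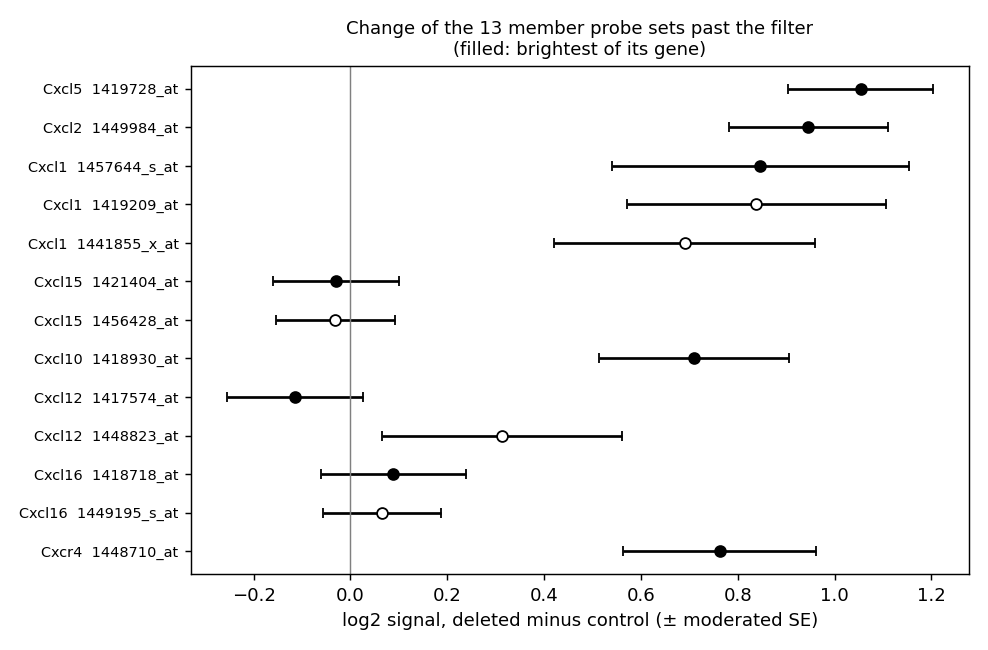
Log2 difference (deleted minus control, ± moderated SE, n = 3 pools each) of the 13 member probe sets past the filter, grouped by gene; filled points mark the brightest probe set of a gene. The probe sets of Cxcl5, Cxcl2, Cxcl1, Cxcl10 and Cxcr4 lie between 0.69 and 1.05, those of Cxcl15 and Cxcl16 near 0, and the pair for Cxcl12 on opposite sides of 0.

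Over probe sets, 10 of the 13 past the filter had differences above 0 and 3 below. Of all genes tested, each by its brightest probe set, 49.1% lay above 0. The groups did not overlap, with deleted pools higher, for 5 of the 13, where 7.69% of all probe sets past the filter did so. These were the probe sets of Cxcl5, Cxcl2, Cxcl10 and Cxcr4 and the dimmest of Cxcl1, which share pools and, for Cxcl1, a transcript.

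Among the interferon-induced ligands, Cxcl10 (IP-10) had signals (1418930_at) of 1913, 2334 and 2006 in control pools 1, 2 and 3 and 2504, 3766 and 4158 in deleted pools 1, 2 and 3. Deleted pool 1 lay close above control pool 2, and the other 2 deleted pools were clearly higher. The mean was 3476 ± 864 against 2084 ± 221, a log2 difference of 0.71 ± 0.19 that did not pass (adjusted p = 0.20 by limma). Without deleted pool 1 the difference was 0.93 (adjusted p = 0.095), and without deleted pool 3 it was 0.56 (adjusted p = 0.50). Both Cxcl9 probe sets lay below the filter. The brighter (1456907_at) gave 134, 363 and 388 in control pools and 270.6, 20.5 and 182 in deleted pools, and the dimmer (1418652_at) 33 to 42.4 and 29.2 to 49.6. The groups overlapped on both, and the former gave an adjusted p of 0.66 in a limma fit of all 18193 genes with no filter.

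The ligand genes Cxcl12 and Cxcl16 were not found to differ. Cxcl12 (SDF-1), a ligand largely of stromal cells, had signals (1417574_at) of 1825, 1626 and 1683 in control pools 1, 2 and 3 and 1576, 1469 and 1699 in deleted pools 1, 2 and 3. The groups overlapped, with a log2 difference of -0.11 ± 0.14 (adjusted p = 0.80 by limma), while a dimmer probe set (1448823_at) gave 0.31 ± 0.25 and their mean over probe sets 0.099. The third Cxcl12 probe set (1439084_at, 25.1 to 73.6) lay below the filter. Cxcl16, which also acts as a scavenger receptor for oxidised lipoprotein, had signals (1418718_at) of 3567, 3070.3 and 3981 in control pools 1, 2 and 3 and 3336, 3625 and 4335 in deleted pools 1, 2 and 3. These ranges overlapped (log2 difference 0.089 ± 0.15, adjusted p = 0.87 by limma), and the other probe set (1449195_s_at) gave 0.066 ± 0.12. The Cxcl16 difference lay just below 0 without control pool 2 (-0.0098) or deleted pool 3 (-0.017).

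Of the receptors, Cxcr4, which binds CXCL12, had signals (1448710_at) of 4736, 3940.2 and 7167 in control pools 1, 2 and 3 and 9373.5, 8020.4 and 8682 in deleted pools 1, 2 and 3. Control pool 3 was high among the controls and lay nearest to the deleted pools, which were all above it. The mean was 8692 ± 677 against 5281 ± 1681, a log2 difference of 0.76 ± 0.20 with an adjusted p of 0.19 (limma). Without control pool 3 the difference was 1.01 and passed (adjusted p = 0.0080), and with array weights it was 0.79 and passed (0.029). It did not pass in the other 13 of 15 alternative settings, and was lowest without control pool 2 (0.57, adjusted p = 0.13). Cxcr2, the neutrophil receptor for CXCL1, CXCL2 and CXCL5, lay below the filter (1421734_at) at 34.4, 173 and 106 in control pools and 61.3, 32.4 and 78.5 in deleted pools. The groups overlapped, with an adjusted p of 0.82 in the limma fit with no filter.

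The RefSeq gene table places 7 neighbouring genes on chromosome 5, all of the CXC family, in the order Cxcl5, Ppbp, Pf4, Cxcl3, Cxcl15, Cxcl1 and Cxcl2. Of these, 6 were past the filter. Log2 differences along the cluster were 1.05 for Cxcl5, 0.84 for Pf4, 1.49 for Cxcl3, -0.029 for Cxcl15, 0.85 for Cxcl1 and 0.95 for Cxcl2. Cxcl15, whose value turns above 0 under the scalings given for it, thus lay near 0 between measured neighbours with values of 0.84 or more, of which Cxcl5 and Cxcl2 passed the threshold. Its signal lay near the top of the array range, where a rise could be compressed.

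**Figure D3:**
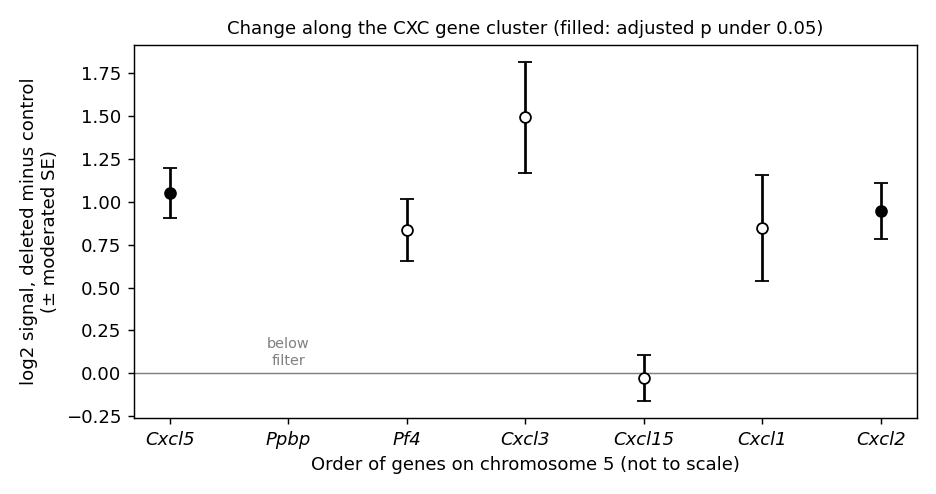
Log2 difference (deleted minus control, ± moderated SE, n = 3 pools each) of the 7 neighbouring CXC genes in their order on chromosome 5, evenly spaced and not to scale; filled points passed the threshold. Cxcl15 lies at -0.029 between Cxcl3 at 1.49 and Cxcl1 at 0.85, measured near the top of the array range where a rise could be compressed, and Ppbp was below the filter.

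The rest of the CXC family had 13 listed genes, of which 10 were past the filter. By limma 0 of these 10 were called in either direction, and 2, Cxcl3 and Pf4, had an unadjusted p under 0.05, both higher. The median log2 difference was 0.18. Cxcl3, a further CXCR2 ligand, had signals of 1115, 2013.9 and 1354 in control pools 1, 2 and 3 and 6983, 3020.3 and 3208 in deleted pools 1, 2 and 3, so deleted pool 1 was by far the highest and the groups did not overlap (log2 difference 1.49 ± 0.33, adjusted p = 0.11). Pf4, platelet factor 4, gave 3349 ± 298 against 1906 ± 425 (0.84 ± 0.18, adjusted p = 0.11). The T cell receptors for these ligands gave 0.046 ± 0.33 (Cxcr3, for CXCL9 and CXCL10) and 0.38 ± 0.32 (Cxcr6, for CXCL16), and the B cell pair 0.22 ± 0.41 (Cxcr5) and 0.21 ± 0.29 (its ligand Cxcl13). The scavenging receptors Ackr3, which clears CXCL12, and Ackr1 gave -0.30 ± 0.16 and -0.17 ± 0.36. Cxcl14 gave 0.14 ± 0.28 and Cxcl17, a mucosal chemokine, 0.034 ± 0.14. Ppbp and Cxcl11 lay below the filter, and Cxcr1 had no named probe set here.

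The inputs that induce the neutrophil-attracting ligands were listed as IL-17, IL-1, Toll-like receptor, TNF and NF-kappaB genes. Over all genes 2 of 20 measured rose and none fell (median log2 difference 0.19), and an unadjusted p under 0.05 was reached by 6 in the higher and 1 in the lower direction. Nfkbiz, which encodes IkappaB-zeta, a nuclear cofactor of NF-kappaB, went from 11561, 11912 and 10226 in control pools 1, 2 and 3 to 23032, 21571 and 23301 in deleted pools 1, 2 and 3, so all 3 deleted pools were high and the controls alike (log2 difference 1.01 ± 0.11, adjusted p = 0.0041 by limma) and it passed in all 6 fits with 1 pool left out. Its other probe sets gave 0.66 and 0.21. Tnfaip3, the A20 gene, a feedback inhibitor of NF-kappaB, gave 15360.2 ± 1039 against 8757 ± 1239 (0.82 ± 0.13, adjusted p = 0.030) and 1.23 on its other probe set. It passed in 2 of the 6 such fits, those without control pool 2 or 3. The cytokine genes Il1a (0.83 ± 0.33), Il1b (0.39 ± 0.24) and Tnf (0.49 ± 0.32) did not pass. The gene lower at an unadjusted p was Il1r1, the IL-1 receptor, at 1688, 1630.2 and 1496 in deleted pools 1, 2 and 3 and 3033, 1828 and 2354 in control pools 1, 2 and 3, with no overlap (-0.55 ± 0.19, adjusted p = 0.30). The brightest probe set of Nfkbia, another feedback inhibitor, gave -0.061 ± 0.14 at a very high signal (110265 in deleted pools) where its 4 dimmer ones gave 0.16, 0.19, 0.31 and 0.21.

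Among 13 measured interferon inputs to Cxcl9 and Cxcl10, 1 rose and none fell (median log2 difference 0.24). Irf1, a transcription factor induced by interferon gamma, gave 8650.1, 8592 and 8011.5 in control pools 1, 2 and 3 and 12199, 13187 and 12625 in deleted pools 1, 2 and 3, with a wide gap between the groups (0.59 ± 0.10, adjusted p = 0.038 by limma). It passed without control pool 2 or 3 and missed in the other 4 fits with 1 pool left out. At an unadjusted p under 0.05 there were 5 of 13 higher and none lower, Irf1, Ifnar2, a subunit of the type I interferon receptor (0.50 ± 0.14), Irf8, a myeloid transcription factor (0.72 ± 0.25, with -0.046 by its dimmer probe set), the kinase gene Jak1 (0.32 ± 0.12) and Irf9 (0.31 ± 0.13). The 4 besides Irf1 did not pass (adjusted p from 0.20 to 0.40 by limma). Values above 0 were found for 12 of 13, where 49.1% of all genes tested had them. Of 16 measured genes for CXC receptor signalling and ligand handling, 0 were called by limma and 2 had an unadjusted p under 0.05 (median 0.16). They were Dock2, a leukocyte migration gene (0.95 ± 0.28, adjusted p = 0.24), and Hif1a (0.24 ± 0.10, adjusted p = 0.40). The proteases that shed CXCL16, Adam10 and Adam17, gave 0.14 ± 0.10 and 0.19 ± 0.14.

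**Figure D4:**
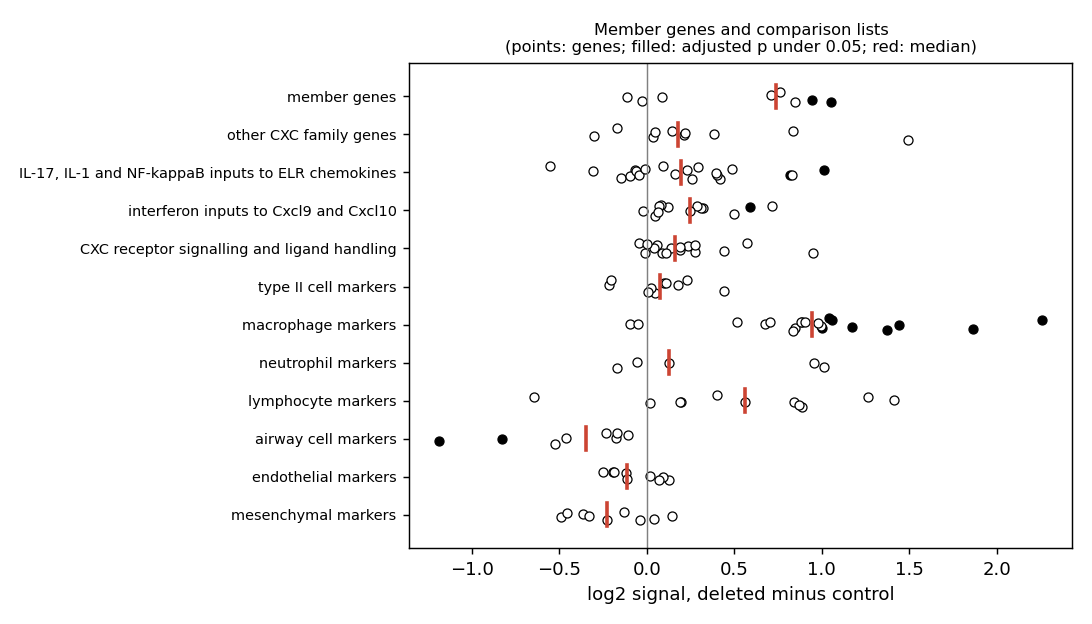
Log2 difference (deleted minus control) of each measured gene in the member set and in the comparison lists; filled points passed the threshold and red bars mark medians. Medians are 0.74 for the members, 0.94 for macrophage markers, 0.12 for neutrophil markers and 0.073 for type II cell markers.

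Markers of other cells were measured in the same pools, and in bulk RNA more cells of a type and more RNA per cell cannot be told apart. Of 20 measured macrophage markers, 9 rose and none fell, with Marco at 2.26 ± 0.28, Gpnmb at 1.86 ± 0.18, Mpeg1 at 1.37 ± 0.18 and Cd68 at 0.9996 ± 0.12. The lysozyme genes Lyz1 and Lyz2 gave -0.053 and -0.094, near the top of the array range, where a rise could be compressed. Another bright Lyz1 probe set (mean 130684 in deleted pools) gave -0.11. The dimmest gave 1.20 with overlapping groups (means of 2603 in deleted and 1586 in control pools). Without deleted pool 1 or 2 Marco, Mpeg1 and Cd68 missed the threshold (without deleted pool 3 Mpeg1 and Cd68 did), and Gpnmb passed in all 6 fits with 1 pool left out. The summed macrophage signal was 397255 to 444351 in deleted and 296138 to 392939 in control pools, lowest in control pool 1 (296138). Most of this sum came from the 2 lysozyme genes. Lyz1 had a mean of 155584 in deleted and 161670 in control pools, and Lyz2 of 114048 and 122380. The sum thus says little about the other macrophage markers. The 5 neutrophil markers Csf3r, Mmp8, Mpo, Camp and Elane gave log2 differences of 0.92, 0.96, -0.11, -0.51 and -0.12, with overlapping groups. All 5 lay below the filter. Of 5 neutrophil markers past it, 0 were called by limma, and an unadjusted p under 0.05 was reached by 2, S100a8 (1.01 ± 0.26) and S100a9 (0.95 ± 0.29). The others past it gave 0.12 (Ngp), -0.055 (Mmp9) and -0.17 (Ltf). Over all 10 neutrophil markers named on the array, with no filter, the summed signal was 12136 to 13414 in deleted and 8791 to 12726 in control pools. Ltf had the highest mean signal among them, 5086 in deleted and 5416 in control pools. Lymphocyte markers had 0 of 11 called by limma, with 3 higher at an unadjusted p under 0.05. Their summed signal was 15577 to 20315 in deleted and 8255 to 19036 in control pools. Control pool 3 held the highest control value for this sum and for Cxcr4. It also held it for the macrophage, neutrophil, airway, endothelial and mesenchymal sums. Among the lymphocyte markers Ccr7 gave 1.27 ± 0.30 and Cd2 0.84 ± 0.25, while Cd3e gave 0.017 and Cd8a -0.65 on its brightest probe set. The median of the 11 was 0.56, with 10 above 0 and 1 below, where 49.1% of all genes tested lay above 0. Airway markers had 2 of 8 called lower, Ccdc153 (-1.18 ± 0.16) and Sox2 (-0.83 ± 0.13), where 3 of all 12952 genes tested were. Neither passed without deleted pool 1, 2 or 3, nor Sox2 without control pool 1. On their brightest probe sets, none of 10 type II, 9 endothelial or 9 mesenchymal markers was called by limma, with 0, 0 and 1 at an unadjusted p under 0.05. The smallest p in these lists belonged to Etv5 (0.44) and Sftpd (0.23), Vwf (-0.20) and Eng (-0.12), and Tcf21 (-0.49) and Pdgfra (-0.46). Dimmer probe sets of Etv5 (0.64), Napsa (0.87) and Lpcat1 (-1.05) reached an unadjusted p under 0.05 by limma and did not pass. The part of these cells in the chemokine values was not tested.

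By the root mean square difference of mean-centred log2 signals over the 6 pools, the genes most like Cxcl5 among those tested were Malt1, a signalling protease gene upstream of NF-kappaB (0.096), the C-type lectin gene Clec4d (0.10), the fatty acid binding protein gene Fabp4 (0.11) and the dendritic cell marker gene Cd83 (0.12), each with deleted pools wholly above controls. Those most like Cxcl15, the member with the highest signal, were Evpl (0.022), Oaz1 (0.024), Eif4g2 (0.028) and Fos (0.030), each with overlapping groups. All were chosen for likeness over the same 6 pools, so whether their groups overlap follows from that choice.

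**Figure D5:**
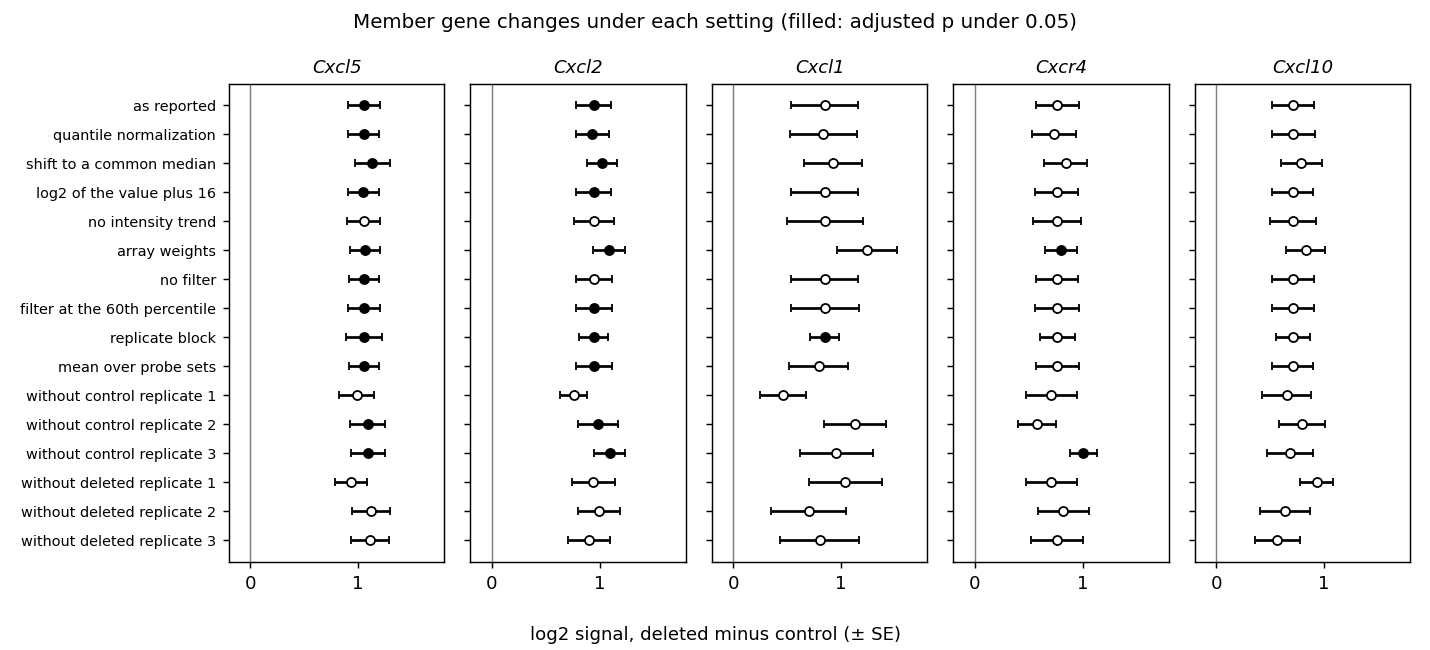
Log2 difference (deleted minus control, ± SE) of Cxcl5, Cxcl2, Cxcl1, Cxcr4 and Cxcl10 as reported and under 15 alternative settings; filled points passed the threshold. All values lie above 0, from 0.46 (Cxcl1 without control pool 1) to 1.24 (Cxcl1 with array weights), while which genes pass changes with the setting.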

How the data were processed

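The deposited table holds 1 linear signal intensity per probe set and array, which the authors made with MAS5 per the submitters' processing notes (version not given). The deposited values show each array scaled to a trimmed mean near 1500 (1499.56 to 1500.01 between the 2nd and 98th percentile). Signals under 1 were set to 1, log2 was taken, and no further normalization was applied. Control probe sets (64) were left out. Precision is limited by the number of arrays.

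The test was that of limma 3.58.1 run under R 4.3.3 (lmFit, eBayes with an intensity trend, two-sided), adjusted over all genes or all probe sets past the filter. With 3 pools against 3 an exact permutation test cannot go below 0.1. Genes were named by the platform annotation and promoters taken from RefSeq. In simulated data made from the 12952 genes changes were found for 10% of genes altered by a log2 of 0.5, 58% at 1, 70% at 1.5 and 80% at 2. Figures used matplotlib 3.10.9.

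Members and lists were chosen with earlier results of these data known. The genes named were all members, Insig1, the other CXC genes, up to 4 called genes per list by p (or 2 if none was called) and the 4 nearest patterns to Cxcl5 and to the brightest member. Further genes of the input lists (Il1r1 and the interferon genes besides Irf1 among them), the 2 lysozyme genes, the 5 neutrophil genes below the filter and Adam10 and Adam17 were named after their values were seen. So were Ngp, Mmp9, Ltf, Cd3e and Cd8a. Alternatives were other normalizations, scale, variance models, filters, probe set summaries, a pool block and each pool left out.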

Additional observations from a re-analysis of the deposited data

How the results depend on the processing

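All 8 member genes past the filter kept their direction under the 15 alternatives except Cxcl15, Cxcl12 and Cxcl16, whose values lay near 0; the causes were not tested. Cxcl15 (-0.13 to 0.042 with 1 pool left out) turned from -0.029 to 0.067 (quantile normalization), 0.049 (common median), 0.072 (array weights), 0.034 and 0.0082 (without control replicate 2 or 3) and 0.042 (without deleted replicate 1), Cxcl12 to 0.099 (mean over probe sets) and Cxcl16 (-0.017 to 0.18 with 1 pool left out) to -0.0098 and -0.017 (without control replicate 2 or deleted replicate 3). With 1 pool left out, the genes past the threshold ranged from 15 to 477 (84 with all pools; without control replicate 2 there were 477, 184 higher and 293 lower), member genes from 0 to 3 (2), probe sets from 3 to 461 (87) and member probe sets from 0 to 3 (1). Fits with fewer pools have fewer degrees of freedom. With no intensity trend 29 genes, 0 member genes, 4 probe sets and 0 member probe sets passed; with array weights 259 genes, 170 probe sets and 2 member probe sets; with a common median 131 probe sets and 2 member probe sets; with no filter 1 member gene. The pool numbers were not taken to pair the samples, since not every correlation passed 0.1 (correlations of same-numbered deviations 0.074, 0.040 and 0.15; the 3 controls, but 2 of 3 deleted pools, correlated best with their own number). The replicate block gave 132 genes, 145 probe sets and 3 member probe sets, and Cxcl1 passed with it (adjusted p = 0.024).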
